A study of Homo sapiens with 66 samples.

Results

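The collagen genes described here are the protein-coding genes whose symbol is COL, a number, A and a number. The rule found 44 such genes among the 60603 genes of the count tables, of which 19882 are protein-coding. From textbook knowledge of their products, 11 were classed as fibrillar, 8 as basement membrane and 25 as other types. The last class held 10 fibril-associated collagens with interrupted helices (FACIT), 5 chains of the type VI microfibril, 4 transmembrane collagens, 3 short-chain network collagens, the anchoring fibril collagen COL7A1 and 2 genes left without a type (COL26A1 and COL28A1).

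Collagens are extracellular matrix proteins in which alpha chains wind around each other into a stiff helix. Fibrillar collagens pack side by side into the cables that give connective tissue its tensile strength, whereas the type IV chains link end to end into the sheet-like network of basement membranes, the matrix on which neuroepithelial cells, glia and blood vessels rest. FACIT collagens sit on the surface of fibrils, type VI chains form beaded microfibrils around cells, and transmembrane collagens span the plasma membrane. Neurons are not known for making fibrillar collagen, and in the nervous system most of it is found around meninges, vessels and peripheral nerve.

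Transcript levels were measured by bulk RNA sequencing of the H9 human embryonic stem cell line, in 66 libraries that form 22 groups of 3. All libraries carry the WT genotype, and the labels give neural differentiation as the treatment throughout. The groups began with stem cells (hESC, in mTeSR on Matrigel) and neuromesodermal progenitors on days 1 to 4 (hNMP). By the study's methods, the hNMP days were 1 day in mTeSR and then 3 in N2B27 medium with SB431542, Dorsomorphin, FGF2 and CHIR99021. Next was the NeuDet stage on days 1 to 6 (the same inhibitors with FGF2, FGF8, CHIR99021 and Compound E, cells that the labels call hSCNPCs). Expanded spinal cord neural progenitors came from passages 5, 10, 20, 30 and 40 (hSCNPC, SB431542, CHIR99021 and Purmorphamine on Matrigel). The last were motor neuron cultures on days 6, 12, 18, 24, 30 and 42 (hMN, Purmorphamine, Compound E, BDNF, GDNF and NT-3 on poly-D-lysine and Matrigel). Every group derives from this single cell line, and nothing in the sources states that a group's 3 libraries are separate cultures. The Matrigel coating is itself rich in basement membrane protein, which RNA counts do not register.

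Short stretches of genomic sequence are shown because they lie just before a RefSeq transcript start of genes on which the comparisons below turn. They were taken from RefSeq promoter windows on GRCh38.p14, printed 5′ to 3′ and restricted to bases in no annotated exon of the gene. GENCODE lists further transcripts of COL6A3, COL24A1 and COL4A2 that start farther out, so for these the stretch lies within the GENCODE span of the gene. The first precedes the start of COL5A1, a minor fibrillar chain whose transcript was nearly lost during expansion of the progenitors, on the plus strand at chr9:134641653-134641802. The next belongs to COL6A3, which dropped to 0 counts between passages 10 and 20, on the minus strand at chr2:237414208-237414278. The third belongs to COL24A1, the fibrillar gene that rose between passages 5 and 40, on the minus strand at chr1:86156773-86156896. In these 3 lines capitals mark CG dinucleotides, of which there were 14 in 150 bases, 1 in 71 bases and 4 in 124 bases. The last lies between the diverging RefSeq starts of COL4A1 and COL4A2, on the plus strand at chr13:110307158-110307257, with 14 CG dinucleotides in 100 bases and capitals on its single CCAAT box.
COL5A1: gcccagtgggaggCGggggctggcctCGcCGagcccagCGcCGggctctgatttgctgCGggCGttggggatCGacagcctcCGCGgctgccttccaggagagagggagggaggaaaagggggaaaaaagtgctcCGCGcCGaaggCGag
COL6A3: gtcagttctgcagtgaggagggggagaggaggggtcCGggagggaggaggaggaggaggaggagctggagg
COL24A1: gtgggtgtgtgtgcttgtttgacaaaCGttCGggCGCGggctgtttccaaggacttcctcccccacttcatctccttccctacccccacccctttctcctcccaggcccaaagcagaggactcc
COL4A1 to COL4A2: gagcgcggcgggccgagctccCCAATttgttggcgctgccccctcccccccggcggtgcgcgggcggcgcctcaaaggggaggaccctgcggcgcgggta

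Promoter windows of 250 bases before the start were held for 32 of the 44 genes. For each gene the window of its most upstream RefSeq start was taken, which need not be the start in use here. That of COL10A1 (chr6:116217144) lies outside the GENCODE span of the gene (chr6:116118909-116158747). Over these the median G and C content was 65.2% and the median number of CG dinucleotides 16, against 57.6% and 10 over 27305 windows of all genes. A CCAAT on either strand occurred in 8 of the 32 windows (25%, against 33.0% of all windows), and a TATAAA in the last 40 bases of the plus sense in 1 (3.1%, against 2.7%). The type IV genes lie head to head in pairs on 3 chromosomes. Between the RefSeq starts of these windows, 126 bases separate those of COL4A1 and COL4A2 on chromosome 13, 418 bases those of COL4A4 and COL4A3 on chromosome 2, and 379 bases those of COL4A6 and COL4A5 on chromosome X. The outermost GENCODE starts differ from these for COL4A2, COL4A4 and COL4A6, and the GENCODE spans of COL4A1 and COL4A2 overlap.

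Total counts per library ranged from 14142238 to 40204753 with a median of 20676228, highest in the NeuDet libraries. Levels are given as CPM, read counts relative to library size, after TMM scaling over all 66 libraries, as mean ± SD with n = 3, and levels of different genes are compared only as CPM per kb of exon. The exon length of a gene joins the exons of all its GENCODE transcripts. It can be longer than the transcripts in use, so ranks and ratios between genes depend on this choice. Marker genes were checked against the labels. Summed pluripotency markers were 342 to 382 CPM in hESC, and the neural progenitor gene PAX6 stood at 522 ± 12.8 CPM in hSCNPC-P10 and below 1 CPM in every hESC, hNMP-D4 and NeuDet-D6 library. HES5 had means of 0, 0.05 and 0 CPM in hESC, hNMP-D4 and NeuDet-D6 and 32.5 CPM in hSCNPC-P10. SOX1 and NES were present earlier. In the same order of groups, SOX1 was at 0.17, 37.2, 3.68 and 110 CPM and NES at 289, 533, 445 and 2324 CPM. TBXT, a defining marker of neuromesodermal progenitors, was at 4.26 ± 1.65 CPM in hNMP-D4 and 9.20 ± 0.88 CPM in NeuDet-D6. CDX2, of the same list, was at 32.45 ± 21.64 and 529.5 ± 21.48 CPM in these groups. NKX1-2 went the other way, at 179.5 ± 52.28 and 113.8 ± 20.48 CPM. Of the motor neuron markers, MNX1 was at 3.65 ± 0.42 CPM in hMN-D6 and 5.02 ± 0.69 CPM in hMN-D42, and ISL1 at 6.08 ± 0.64 and 22.6 ± 1.52 CPM.

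COL11A2 had 0 counts in all 66 libraries, but 99.9% of its exon sequence (chr6:33162681-33192499) also lies on alternate contigs of the assembly, and the neighbouring genes SLC39A7, HSD17B8, VPS52 and RGL2 were at 0 too, so its level cannot be read. Exons of COL18A1 overlap those of SLC19A1 over 18.5% of their length, and those of COL4A3, COL5A3 and COL9A3 overlap other genes over 6.8%, 4.0% and 3.2%. Reads in these overlaps cannot be assigned with certainty, since the strand setting of the counting is not given in the sources used here.

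The collagen genes were spread over the whole course of differentiation. Of the 44, 41 reached 1 CPM in every library of at least 1 group and 16 did so in all 22 groups, while COL10A1, COL6A5 and COL11A2 never did. Of the 43 genes with any count, the highest mean was in hESC or hNMP for 13, in NeuDet for 12, in hSCNPC for 7 and in hMN for 11, with hESC (8 genes) and hMN-D42 (7 genes) the most frequent groups. The number of genes at 1 CPM or more in every library was 35 in hESC, 31 in NeuDet-D6, 26 in hSCNPC-P5, 18 in hSCNPC-P40, 30 in hMN-D6 and 35 in hMN-D42. Per length, the highest means over the 22 groups were those of COL1A1 among fibrillar genes (11.7 CPM per kb), COL18A1 among basement membrane genes (44.2) and COL6A1 among the others (59.9).

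**Figure D1:**
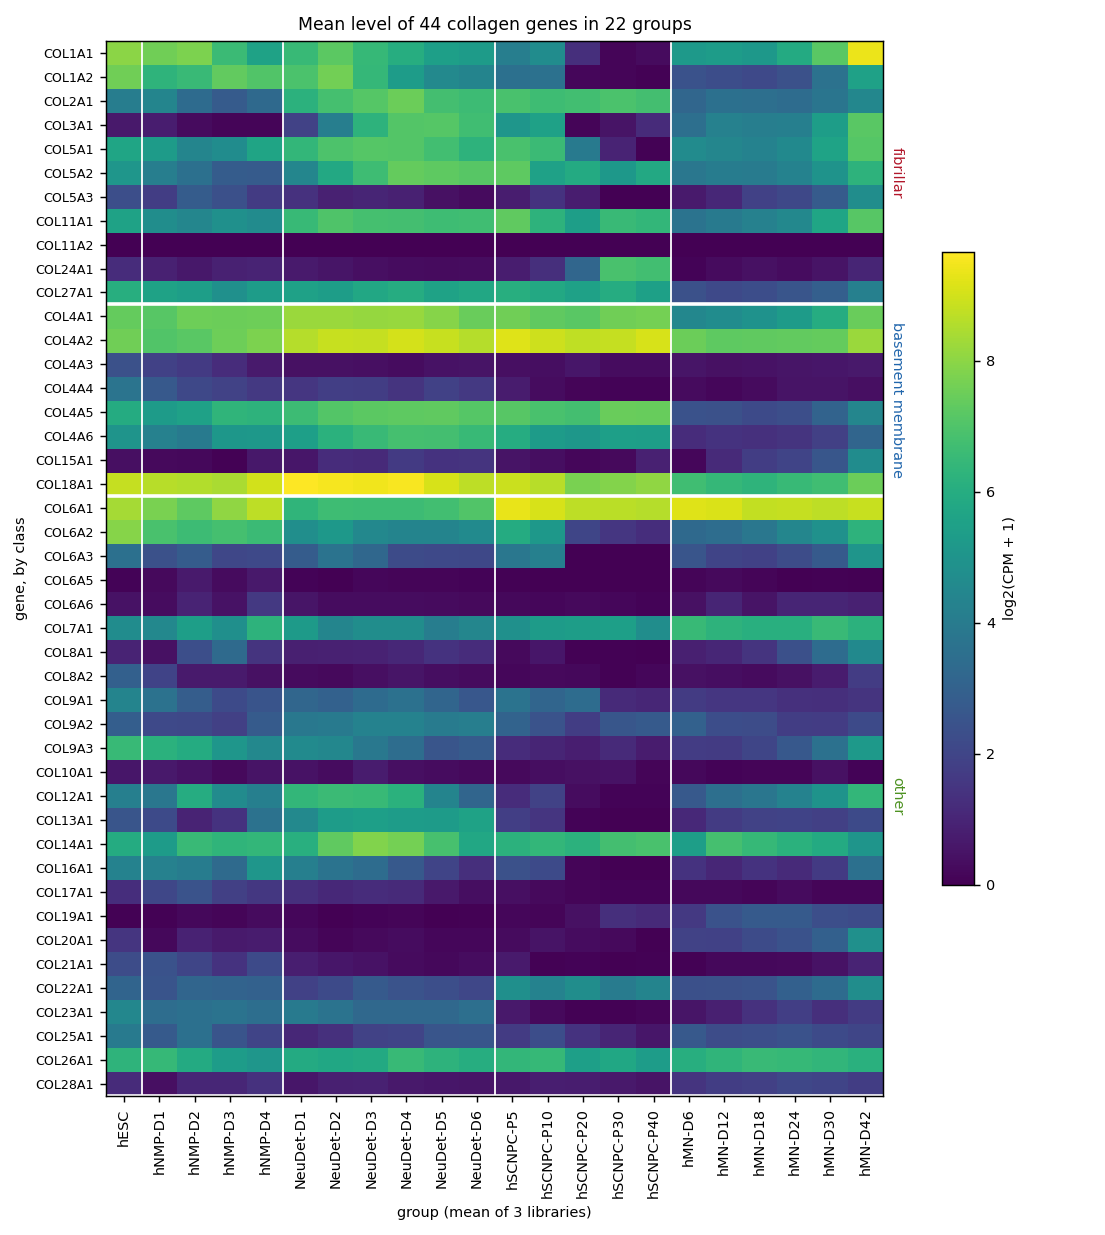
Mean level of the 44 collagen genes (rows, by class) in the 22 groups (columns), as log2(CPM + 1) of the mean of 3 libraries, with white lines between stages and classes. The fibrillar rows COL1A1, COL1A2, COL3A1 and COL5A1 darken from hSCNPC-P20 on while COL24A1 brightens, and most fibrillar rows brighten in hMN-D42.

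Summed over all 44 genes, collagen transcripts made up 2527 CPM in hESC, 3348 CPM in NeuDet-D4, the highest sum under TMM scaling, 3080 CPM in hSCNPC-P5 and 1153 CPM in hMN-D18, where it was lowest. The sum stood at 1254 ± 41.7 CPM in hMN-D6 and 2971 ± 94.1 CPM in hMN-D42. Basement membrane genes held 36.0% of it in hESC, 62.1% in NeuDet-D1 and 24.7% in hMN-D6. Fibrillar genes held 26.1% in hESC, 9.07% in hMN-D6 and 43.2% in hMN-D42, and the other types held 66.2% in hMN-D6, most of it from COL6A1. Under a different scaling (RLE, the size factors of DESeq2) 11 of the 22 sums moved by more than 1 SD, that of hMN-D42 to 3158 CPM and that of NeuDet-D4 to 3162 CPM, so that these groups were level under RLE.

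**Figure D2:**
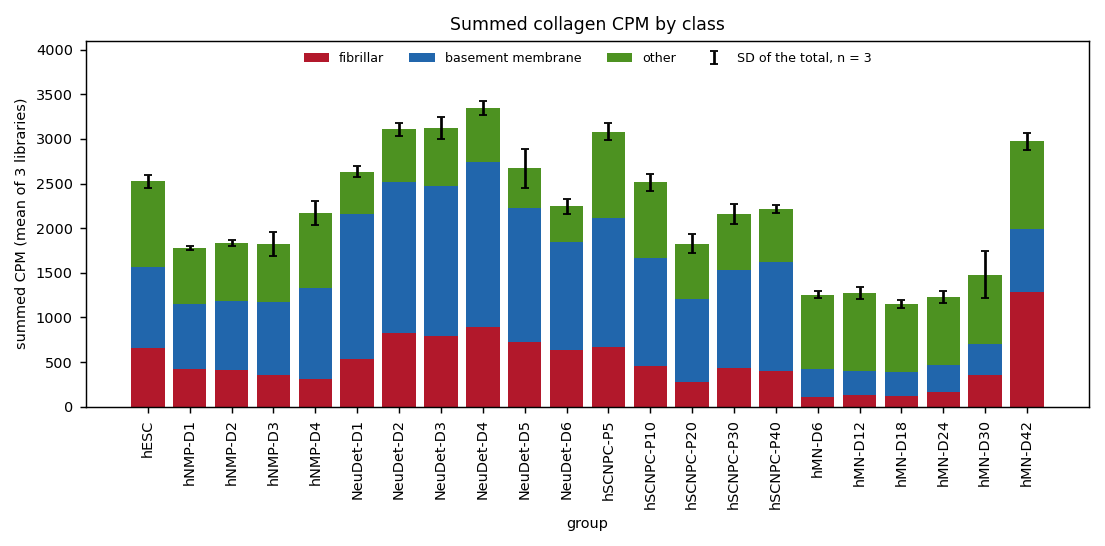
Summed CPM of the collagen genes in each group (mean of 3 libraries), stacked by class, with the SD of the total as error bar. Under TMM scaling the sum is highest in NeuDet-D4 (3348 CPM, against 2971 CPM in hMN-D42, and level with it under RLE) and lowest in hMN-D18 (1153 CPM), and the fibrillar part of hMN-D42 is 1285 CPM against 114 CPM in hMN-D6.

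Differences were tested in edgeR (quasi-likelihood F), with Benjamini-Hochberg adjustment over all genes tested and a threshold of 0.05. "Rose" and "fell" below mean that a gene passed it. All adjusted p values come from this test. COL11A2 did not pass the filter on low counts in any comparison, and COL6A5, COL10A1 and COL17A1 did not in those with hMN. Successive comparisons share a group, so their values are given side by side and not as separate evidence. In bulk RNA, fewer cells of a type and less RNA per cell cannot be told apart.

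**Figure D3:**
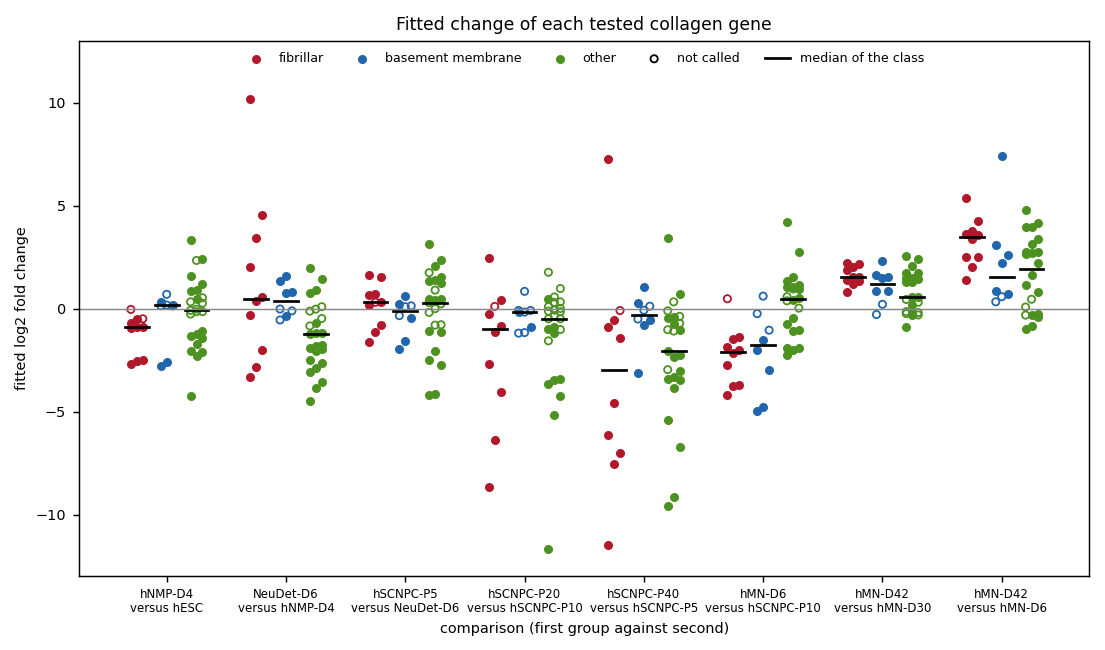
Fitted log2 fold change of each tested collagen gene (y axis) in the 8 comparisons (x axis), coloured by class; open circles are genes that did not pass the test and the black bar is the median of the class. The fibrillar medians are -0.90 for hNMP-D4 against hESC, -3.0 for hSCNPC-P40 against P5 and 3.46 for hMN-D42 against D6.

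Between hESC and hNMP-D4, the entry into the neuromesodermal stage, fibrillar collagens fell. Of the 43 genes tested, 9 rose and 19 fell, where 26.7% and 27.6% of all 21597 genes tested did. Among the fibrillar genes 0 of 10 rose and 8 fell (median log2 fold change -0.90, against 0.01 over all genes), and COL5A1 (-0.04 ± 0.10 SE, adjusted p = 0.749) and COL24A1 (-0.50 ± 0.25, adjusted p = 0.0872) did not pass. COL1A1, the major chain of type I collagen in skin and bone (chr17:50184101-50201632), stood at 274, 242 and 248 CPM in the hESC libraries and at 40.2, 54.4 and 43.3 CPM in those of hNMP-D4. The groups did not overlap, and the log2 fold change was -2.49 ± 0.11 (adjusted p = 2.72e-23). COL5A2, a type V chain that helps to start fibrils, went from 32.1, 34.0 and 33.5 CPM to 6.47, 6.11 and 4.78 CPM (-2.55 ± 0.09, adjusted p = 4.06e-31).

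Outside the fibrillar class, COL4A3 and COL4A4, chains of the mature kidney basement membrane, fell at this step, while COL4A2 and COL4A5 rose by 0.19 ± 0.07 and 0.31 ± 0.06. COL4A3 went from 3.79, 3.36 and 5.48 CPM to 0.47, 0.74 and 0.64 CPM, and its head-to-head partner COL4A4 from 9.81, 14.1 and 12.4 CPM to 1.88, 2.95 and 1.27 CPM. Both pairs of groups were apart (log2 fold changes -2.77 ± 0.30 and -2.61 ± 0.23). COL4A1 changed by 0.13 ± 0.06 and did not pass (adjusted p = 0.0786). The short-chain collagen COL8A2, a component of the membrane under corneal endothelium, had the lowest fitted value, from 7.31, 6.83 and 6.35 CPM to 0.42, 0.21 and 0.42 CPM (-4.26 ± 0.34, adjusted p = 7.88e-16), and the neuronal transmembrane collagen COL25A1 went from 14.5 ± 1.3 to 2.94 ± 0.69 CPM (-2.32 ± 0.17).

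Of the other types 7 of 25 rose into hNMP-D4 (28.0%, near the 26.7% of all genes) and 9 fell. COL7A1, which forms the anchoring fibrils under stratified epithelia, stood at 25.8, 26.0 and 23.7 CPM in hESC and at 58.4, 69.3 and 99.2 CPM in hNMP-D4 (1.57 ± 0.13, adjusted p = 3.78e-14). COL6A6 rose from 0.16, 0.52 and 0.44 CPM to 2.04, 1.42 and 2.63 CPM, COL13A1 from 4.92 to 11.4 CPM, COL16A1 from 18.3 to 32.8 CPM and COL14A1 from 59.9 to 83.9 CPM, all 4 without overlap of the libraries. COL6A1, the collagen with the most transcript per length in hNMP-D4, was uneven there, at 253.1, 426.8 and 575.5 CPM. In hESC it stood at 342.9, 325.7 and 324.6 CPM, and it did not pass (0.32 ± 0.15, adjusted p = 0.0651). COL8A1 passed (0.88 ± 0.32, adjusted p = 0.0176) on 1 library: it stood at 1.08, 1.09 and 0.62 CPM in hESC and at 0.89, 1.26 and 3.01 CPM in hNMP-D4, the groups overlapped, and without hNMP-D4 replicate 3 the value was 0.17 (adjusted p = 0.71). The summed endoderm and epithelium markers were at 428 to 466 CPM in hESC and at 773 to 1250 CPM in hNMP-D4, with 2 and 3 of 5 at 1 CPM or more. EPCAM and CDH1 held most of this, at 161 and 287 CPM in hESC and at 451 ± 113 and 531 ± 142 CPM in hNMP-D4. The hNMP-D4 libraries were uneven in both, at 386, 387 and 582 CPM for EPCAM and 386, 535 and 671 CPM for CDH1. SOX17, FOXA1 and GATA6 were at 0.04, 0.11 and 0.08 CPM in hESC and at 0.05, 0.31 and 1.1 CPM in hNMP-D4. The part of these markers in the changes was not tested.

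From hNMP-D4 to the last day of the NeuDet stage some fibrillar genes rose and others fell, and most FACIT genes fell. Between hNMP-D4 and NeuDet-D6, 14 of 43 collagen genes rose and 21 fell, against 30.3% and 34.8% of all genes. Of the fibrillar genes 6 rose and 4 fell, of the basement membrane genes 4 of 8 rose and 1 fell, and of the FACIT genes 1 of 10 rose and 8 fell (median -1.60, against -0.05 over all genes). The FACIT genes did not go down steadily. Their sum was 178 CPM in hNMP-D4, 218, 314 and 377 CPM on NeuDet-D1 to D3 and 94.4 CPM on D6, with COL14A1 at 83.9 CPM in hNMP-D4, 230.2 CPM on NeuDet-D3 and 54.2 CPM on D6. COL3A1, the chain of the thin fibrils of soft tissue (chr2:188974373-189012746), stood at 0.16, 0.05 and 0.04 CPM in hNMP-D4 and at 103, 110 and 97.3 CPM in NeuDet-D6, a log2 fold change of 10.17 ± 0.24 (adjusted p = 5.76e-36). On the days between, its mean was 2.72, 16.4, 75.7, 135 and 138 CPM on NeuDet-D1 to D5. Its neighbour on chromosome 2, COL5A2, also rose, from 6.47, 6.11 and 4.78 CPM to 138, 142 and 142 CPM (4.55 ± 0.08).

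Cartilage-type fibrillar genes rose with them. COL2A1, the main collagen of cartilage that is also made in the early neural tube and notochord, went from 16.3, 6.16 and 4.36 CPM to 98.8, 105 and 93.2 CPM (3.43 ± 0.19), and its fibril partner COL11A1 from 27.6, 21.7 and 24.1 CPM to 103, 95.5 and 109 CPM (2.00 ± 0.08). Without hNMP-D4 replicate 1, which had the highest values of that group, COL2A1 gave 4.24 and COL3A1 gave 10.94. COL1A2, the second chain of type I collagen, moved the other way, from 118, 133 and 144 CPM to 17.8, 19.0 and 21.7 CPM (-2.82 ± 0.09), and COL1A1 fell by 0.33 on the log2 scale with overlapping libraries. The summed chondrocyte markers were at 53.5 to 64.9 CPM in hNMP-D4 and 20.6 to 26.4 CPM in NeuDet-D6, with 4 and 2 of 6 at 1 CPM or more, and the summed mesenchyme and fibroblast markers at 83.9 to 118 and 104 to 108 CPM, with 6 and 9 of 12 at 1 CPM or more. The part of either in the result was not tested.

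Among the remaining types, COL13A1, a transmembrane collagen of cell contacts, rose from 12.9, 14.0 and 7.20 CPM to 47.0, 49.2 and 43.8 CPM (1.98 ± 0.15), and the vessel-wall collagen COL15A1 from 0.42, 0.47 and 0.72 CPM to 1.89, 1.87 and 1.45 CPM. COL16A1 had the lowest fitted value, from 29.2, 31.8 and 37.4 CPM to 1.35, 1.66 and 1.49 CPM (-4.51 ± 0.14), followed by COL21A1, COL6A6, COL5A3 and the hemidesmosome collagen COL17A1 with log2 fold changes between -3.87 and -2.90. The libraries of these genes did not overlap.

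From NeuDet-D6 to the expanded progenitors at passage 5, type VI genes rose and transmembrane collagens fell. Of 43 genes 18 rose and 13 fell, against 28.8% and 30.6% of all genes. Of the type VI genes 3 of 5 rose and 0 fell, of the transmembrane genes 0 of 4 rose and 3 fell, and of the fibrillar genes 6 of 10 rose and 3 fell. COL6A1, a core chain of the type VI microfibril (chr21:45981770-46005050), stood at 123, 129 and 139 CPM in NeuDet-D6 and at 660, 651 and 627 CPM in hSCNPC-P5 (2.35 ± 0.16, adjusted p = 3.31e-15). COL6A3 went from 2.51, 2.72 and 4.55 CPM to 12.1, 14.3 and 13.1 CPM (2.08 ± 0.16) and COL6A2 from 25.6, 22.4 and 23.8 CPM to 70.1, 56.4 and 55.2 CPM (1.38 ± 0.13). These 3 chains make up the classical type VI microfibril. COL22A1, a FACIT collagen of muscle-tendon junctions, had the highest fitted value, from 2.76, 3.50 and 3.13 CPM to 28.6, 27.7 and 24.8 CPM (3.15 ± 0.13), and COL9A1 and COL16A1 rose by 1.25 ± 0.14 and 1.52 ± 0.16.

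COL13A1 and COL23A1, both transmembrane, fell at the same step. COL13A1 went from 47.0, 49.2 and 43.8 CPM to 3.15, 1.87 and 2.32 CPM (-4.21 ± 0.19) and COL23A1 from 10.3, 11.1 and 10.1 CPM to 0.64, 0.40 and 0.67 CPM (-4.14 ± 0.20). COL12A1, a FACIT collagen of tendon and of regenerating tissue, had a mean of 89.5 CPM on NeuDet-D3 and 7.86 CPM on D6 and was at 1.63, 1.02 and 1.40 CPM at passage 5 (-2.48 ± 0.20). COL8A1, COL9A3 and COL15A1 fell by 2.75, 2.08 and 1.98 on the log2 scale, and COL3A1 from 104 to 32.4 CPM. The mesenchyme and fibroblast markers summed to 104 to 108 CPM in NeuDet-D6 and 37.7 to 40 CPM in hSCNPC-P5, and their part was not tested.

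Over long expansion of the progenitors most fibrillar genes and 3 of 5 type VI genes fell, while COL24A1 rose. Between passages 5 and 40, 5 of 43 collagen genes rose and 27 fell, against 22.8% and 24.1% of all genes, and the median log2 fold change was -1.04 (-0.01 over all genes). Of the fibrillar genes 1 of 10 rose and 8 fell (median -3.0, or -2.56 with the gene at 0 counts set to its bound), of the other types 2 of 25 rose and 16 fell, and of the basement membrane genes 2 of 8 rose and 3 fell. All 4 transmembrane genes fell.

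COL5A1, a chain of type V collagen that sets fibril diameter, was at 116, 122 and 110 CPM at passage 5 and at 0.05, 0.07 and 0 CPM at passage 40. These are 6282 counts against 2, a ratio of 3330 with a 95% interval of 922 to 27500 (exact, from counting error only). The means in between were 94.4 CPM at passage 10, 14.5 CPM at passage 20 and 0.95 CPM at passage 30, each lower than the one before. COL1A2 had 584 counts against 3, a ratio of 207 (70.3 to 1000), COL6A3 had 713 against 1, a ratio of 757 (135 to 29900), and COL13A1 132 against 1, a ratio of 140 (24.7 to 5570). COL16A1 and COL5A3 had 0 counts at passage 40 and were at least 80.3-fold and 13.1-fold lower, taking 3 counts over the group as the floor. COL1A1 went from 17.97, 15.9 and 16.3 CPM to 0.16, 0.13 and 0.34 CPM (-6.15 ± 0.28, and -6.76 without hSCNPC-P40 replicate 3).

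COL24A1, a fibrillar collagen found in developing bone and cornea (chr1:85729233-86156943), went the other way. It stood at 0.47, 0.74 and 0.88 CPM at passage 5, at 1.52, 1.24 and 1.67 CPM at passage 10, at 9.17, 8.21 and 6.81 CPM at passage 20, and at 114.5, 106 and 101 CPM at passage 40, with a mean of 116 CPM at passage 30. The log2 fold change from passage 5 to 40 was 7.26 ± 0.16 (adjusted p = 3.03e-39), and in none of the 17 groups outside the hSCNPC stage was its mean above 1.34 CPM. COL19A1 rose from 0.23, 0.11 and 0 CPM to 1.02, 1.44 and 1.27 CPM (3.44 ± 0.63, and 4.38 or 2.80 without hSCNPC-P5 replicate 1 or 3), COL14A1 from 72.8 to 118 CPM and COL4A5 from 141 to 170 CPM. COL2A1 (-0.10 ± 0.16) and COL4A2 (-0.08 ± 0.07) did not pass the test. The mesenchyme and fibroblast markers summed to 37.7 to 40 CPM at passage 5 and 68.8 to 70.2 CPM at passage 40, with 7 and 6 of 12 at 1 CPM or more. LUM was at 3.42 ± 0.54 and 27.0 ± 1.42 CPM, PRRX1 at 0.74 and 10.4 CPM and TAGLN at 4.51 and 12.6 CPM, whereas DCN was at 1.88 and 0.05 CPM and POSTN at 0.34 and 0 CPM. Their part was not tested.

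**Figure D4:**
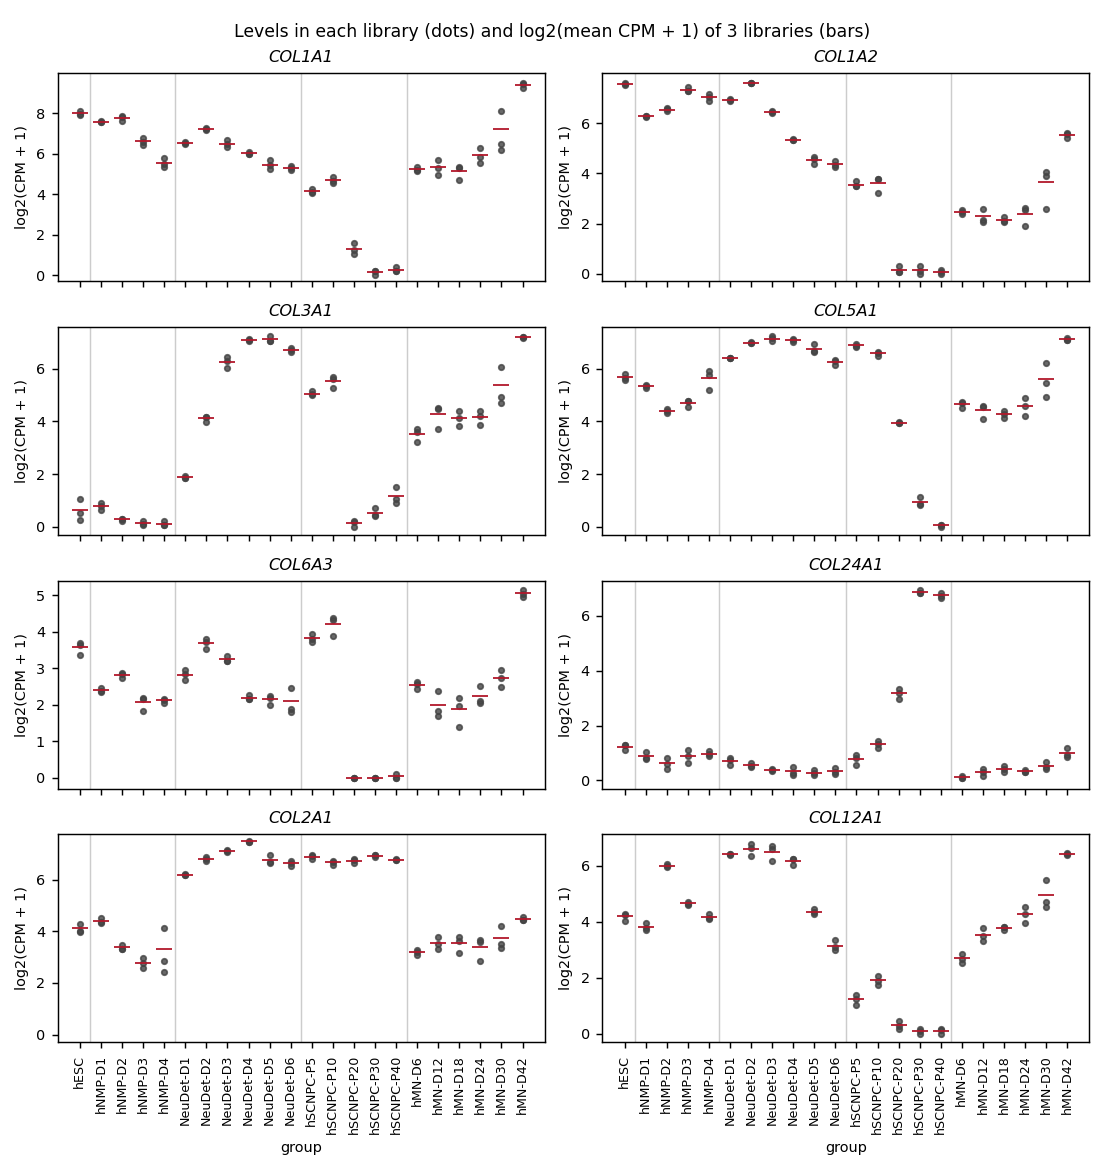
Levels of 8 collagen genes in each of the 66 libraries (dots) as log2(CPM + 1), with the log2 of the group mean + 1 as bars; grey lines separate the stages. From hSCNPC-P10 to P20, COL1A1, COL1A2, COL3A1 and COL6A3 drop in all 3 libraries while COL24A1 climbs, and the hMN-D30 libraries of COL1A1 are spread from 71.7 to 278 CPM.

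The levels by passage showed that much of the loss lay between passages 10 and 20, and this interval was therefore also compared, a choice made after the levels had been seen. Of 43 genes 3 rose and 18 fell, against 10.9% and 14.6% of all genes. The fibrillar genes counted 2 that rose and 7 that fell (median -0.99). COL6A3 (chr2:237324003-237414328) had 13.9, 18.9 and 19.7 CPM at passage 10 and 0 counts in all 3 libraries of passage 20, at least 325-fold lower, against 1007 counts at passage 10. COL3A1 went from 37.3, 48.4 and 50.4 CPM to 0.16, 0.14 and 0 CPM (-8.64 ± 0.26), COL1A2 from 8.37, 12.8 and 12.7 CPM to 0.05, 0.24 and 0.06 CPM (-6.40 ± 0.28) and COL1A1 from 22.5, 24.4 and 28.2 CPM to 2.01, 1.33 and 1.07 CPM (-4.04 ± 0.18). None of these groups overlapped.

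COL16A1 (-5.17 ± 0.32) and COL13A1 (-4.25 ± 0.56) fell over the same interval. Without hSCNPC-P20 replicate 2, which had the highest value of each of these genes at that passage, COL13A1 gave -8.39, COL1A2 gave -7.50 and COL16A1 gave -5.80. Of the basement membrane genes 0 of 8 rose and 2 fell, with COL4A1 at -0.09 ± 0.06 (adjusted p = 0.294), COL4A5 at -0.09 ± 0.06 (adjusted p = 0.257) and COL4A2 at -0.17 ± 0.07 (adjusted p = 0.044). COL24A1 rose by 2.46 ± 0.17, COL22A1 by 0.48 ± 0.11 and COL5A2 by 0.41 ± 0.07. The mesenchyme and fibroblast markers summed to 35.8 to 42.2 CPM at passage 10 and 24.7 to 28.2 CPM at passage 20, with 7 and 4 of 12 at 1 CPM or more. DCN went from 3.25 ± 0.68 to 0.06 ± 0.05 CPM and POSTN from 0.41 ± 0.18 to 0 CPM, whereas LUM went from 4.39 ± 1.06 to 6.43 ± 1.17 CPM. The part of these markers in the fall was not tested.

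Entry into the motor neuron cultures was assessed between hSCNPC-P10 and hMN-D6. No library is labelled day 0, the passage from which the neurons were made is not stated for these samples, and the groups lie in separate count tables, so that table and stage cannot be told apart. Of 40 genes tested 10 rose and 22 fell, against 38.5% and 36.7% of all 21175 genes tested. The fibrillar genes counted 0 that rose and 9 that fell of 10 (median -2.09, against 0.08 over all genes), the basement membrane genes 0 and 5 of 8, and the other types 10 and 8 of 22. With hSCNPC-P20 as the start, 19 rose and 13 fell of 39 tested. The share over all genes with this start is not given here, so these counts are not read as a result about collagens. COL1A1, for example, was at 1.47 CPM at passage 20, 25.01 CPM at passage 10 and 36.4 CPM in hMN-D6 (0.48 ± 0.50 against passage 10, adjusted p = 0.402). The mesenchyme and fibroblast markers summed to 35.8 to 42.2 CPM at passage 10 and 17.6 to 19.6 CPM in hMN-D6, with 7 and 4 of 12 at 1 CPM or more. LUM was at 4.39 and 0.28 CPM, DCN at 3.25 and 0.19 CPM and ACTA2 at 12.4 and 2.52 CPM. POSTN and FOXC2 went the other way, at 0.41 and 1.93 CPM and at 0.13 and 0.88 CPM. TAGLN was at 8.4 and 9.5 CPM. The part of these markers was not tested.

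The type IV chains of chromosome X fell most. COL4A5, mutated in Alport syndrome (chrX:108439838-108697545), stood at 117, 123 and 114 CPM in hSCNPC-P10 and at 4.22, 4.67 and 4.51 CPM in hMN-D6 (-4.79 ± 0.13, adjusted p = 1.12e-18). Its head-to-head partner COL4A6 went from 40.7, 37.8 and 38.5 CPM to 1.48, 1.24 and 1.26 CPM (-4.95 ± 0.15, and -5.63 against passage 5). COL4A1 fell by 2.97 and COL4A2 by 1.52 on the log2 scale. Of the fibrillar genes, COL27A1 went from 57.6, 53.0 and 57.0 CPM to 3.51, 5.10 and 4.12 CPM (-3.78 ± 0.11) and COL2A1 from 103, 94.3 and 106 CPM to 7.51, 8.27 and 8.64 CPM (-3.71 ± 0.22). COL24A1 was at 0.05, 0.13 and 0.05 CPM in hMN-D6, with a log2 fold change of -4.2 ± 0.45 against passage 10, -3.1 against passage 5 and -6.62 against passage 20.

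The genes that rose were low ones, with the exception of COL7A1. COL19A1, a FACIT collagen made by some interneurons, rose from 0.13, 0.13 and 0.05 CPM to 1.70, 2.70 and 1.84 CPM (4.22 ± 0.37, and 2.50 against passage 20) and COL20A1 from 0.21, 0.65 and 0.35 CPM to 3.12, 2.66 and 2.43 CPM (2.76 ± 0.27, and 3.52 against passage 5). COL7A1 stood at 40.5, 37.9 and 37.7 CPM and then at 92.3, 90.3 and 86.6 CPM (1.14 ± 0.06). COL28A1 and COL9A3 rose by 1.05 ± 0.26 and 1.03 ± 0.31. COL12A1 passed narrowly (0.95 ± 0.40, adjusted p = 0.0421) and lost the call without any of the 6 libraries (values from 0.85 to 1.04, adjusted p from 0.0543 to 0.127), while it gave 1.96 against passage 5 and 4.38 against passage 20. COL6A1 was the collagen with the most transcript per length in hMN-D6 (105 ± 3.31 CPM per kb) and did not pass the test (0.02 ± 0.04, adjusted p = 0.682).

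In the maturing motor neuron cultures collagen transcripts returned, the fibrillar ones most. Between hMN-D6 and hMN-D42, 30 of 40 genes rose and 5 fell, against 34.6% and 31.3% of all genes, with a median of 2.51 (0.03 over all genes). All 10 fibrillar genes tested rose (median 3.46), as did 6 of 8 basement membrane genes with 0 that fell and 14 of 22 others with 5 that fell. Of the 8 comparisons this had the most genes that rose. A comparison of hMN-D42 with hMN-D30, added after the levels had been seen and sharing the hMN-D42 libraries, gave 29 that rose and 3 that fell, against 21.8% and 19.9% of all genes, with all 10 fibrillar genes among those that rose.

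COL1A1 stood at 35.1, 40.02 and 34.2 CPM on day 6, at 71.7, 89.6 and 278 CPM on day 30 and at 723, 613 and 691 CPM on day 42. The log2 fold change was 4.22 ± 0.43 from day 6 and 2.23 ± 0.37 from day 30, and the latter became 3.09 without hMN-D30 replicate 3, in which 7 of the 10 fibrillar genes also had their highest value of that day. COL3A1 went from 8.44, 11.3 and 12.1 CPM on day 6 to 148, 143 and 145 CPM on day 42 (3.78 ± 0.32), and COL5A3, a type V chain, from 0.66, 0.60 and 0.63 CPM to 25.4, 25.9 and 25.7 CPM (5.36 ± 0.16). COL5A1, COL11A1 and COL1A2 reached 137, 141 and 45.8 CPM. All of these were higher in every library of day 42 than in any of day 6 or 30.

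COL15A1, a multiplexin of basement membranes around vessels, muscle and peripheral nerve (chr9:98943179-99070792), had the highest fitted value. It stood at 0.11, 0.26 and 0.05 CPM on day 6, at 5.003, 3.63 and 6.54 CPM on day 30 and at 24.5, 26.3 and 23.8 CPM on day 42 (7.38 ± 0.28 from day 6, and 8.23 without hMN-D6 replicate 2). COL8A1, the short-chain collagen of vessel walls, went from 0.27, 1.33 and 0.78 CPM to 22, 25.05 and 22.2 CPM (4.80 ± 0.42, and 5.41 without the same library). Among the FACIT genes COL9A3 rose from 2.36, 2.36 and 2.18 CPM to 38.2, 35.2 and 34.4 CPM (3.98 ± 0.19) and COL12A1 from 4.77, 6.21 and 5.39 CPM to 81.7, 85.9 and 84.9 CPM (3.95 ± 0.24). Between days 30 and 42 COL6A3 and COL16A1 had the highest fitted values, 2.54 ± 0.20 and 2.42 ± 0.23.

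A few genes went down against this trend. COL9A2, COL25A1, COL14A1, COL6A1 and COL7A1 fell between days 6 and 42 by 1.00, 0.84, 0.39, 0.30 and 0.27 on the log2 scale. COL25A1 was at 4.82, 5.78 and 5.97 CPM on day 6 and at 2.33, 3.41 and 3.41 CPM on day 42, and COL14A1 at 40.5, 43.96 and 40.5 CPM and then at 28.9, 32.9 and 32.7 CPM. Between days 30 and 42, COL14A1, COL7A1 and COL26A1 fell by 0.90, 0.32 and 0.22.

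Markers of other cells moved with the late rise. The mesenchyme and fibroblast markers summed to 17.6 to 19.6 CPM on day 6, 29.1 to 39.3 CPM on day 30 and 110 to 120 CPM on day 42, with 4, 6 and 10 of 12 at 1 CPM or more, and DCN and LUM, 2 defining fibroblast markers, stood at 3.55 ± 0.31 and 3.09 ± 0.75 CPM on day 42. POSTN went from 9.07 ± 3.33 CPM on day 30 to 59.4 ± 3.02 CPM on day 42. SOX10, a transcription factor of the neural crest and of Schwann cells, went over the same days from 11.9 ± 3.62 CPM to 46.4 ± 2.82 CPM, with FOXD3 at 1.60 and then 12.9 CPM and TFAP2A at 2.65 and then 11.3 CPM. The 4th neural crest marker, NGFR, went down from 242 to 187 CPM, and since it held most of the counts the summed list stood at 254 to 265 CPM on day 30 and 255 to 259 CPM on day 42, after 582 to 650 CPM on day 6, with 2, 4 and 4 of 4 at 1 CPM or more on days 6, 30 and 42. GFAP, the astrocyte filament, went from 0.75 ± 0.22 CPM on day 30 to 8.73 ± 0.10 CPM on day 42, with the astrocyte list at 4.90 to 7.01 and 24.6 to 26.9 CPM and 2 and then 3 of 3 at 1 CPM or more. Endothelial markers summed to 1.36 to 1.76 CPM on day 6, 1.68 to 1.77 CPM on day 30 and 3.95 to 4.55 CPM on day 42. Of these 5 markers 0, 1 and 1 were at 1 CPM or more. KDR was at 1.15 ± 0.20 CPM on day 30 and 3.38 ± 0.23 CPM on day 42, and PECAM1 at 0.07 ± 0.02 and 0.04 ± 0.04 CPM. Neuronal markers summed to 4820 to 5460 CPM on day 6, 4220 to 4410 CPM on day 30 and 3080 to 3240 CPM on day 42. The part of these cells in the collagen rise was not tested.

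The chains of a single collagen did not keep a fixed proportion. Type I fibrils are normally built with more COL1A1 than COL1A2 chains. Per length, the ratio of COL1A1 to COL1A2 transcript was 1.63 ± 0.08 in hESC, 0.42 ± 0.07 in hNMP-D4, 2.73 ± 0.47 in hSCNPC-P10, 9.77 ± 0.51 in hMN-D6 and 17.7 ± 0.63 in hMN-D42. The ratio thus ran from an excess of COL1A2 in hNMP-D4 to a large excess of COL1A1 in the motor neuron cultures, with the libraries of each of these groups apart from those of the next, although on hMN-D30 it ran from 6.98 to 23.8. For type VI, COL6A1 and COL6A2 lie next to each other on chromosome 21, and their ratio per length was 1.35 ± 0.08 in hESC, 10.4 ± 1.14 in hSCNPC-P5, 15.3 ± 0.34 in P10, 136 ± 22.4 in P20, 269 ± 67.8 in P40, 63.2 ± 2.53 in hMN-D6 and 5.92 ± 0.23 in hMN-D42. At passages 20 and 40 COL6A1 was at 421 and 381 CPM, COL6A2 at 3.05 and 1.43 CPM and COL6A3 at 0 and 0.02 CPM. Ratios were formed only for groups with at least 10 counts of each gene in every library.

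For type IV, the ratio of COL4A1 to COL4A2 per length was 1.17 ± 0.03 in hESC, 0.43 ± 0.02 in hSCNPC-P5, 0.16 ± 0.01 in hMN-D6 and 0.79 ± 0.01 in hMN-D42. These ratios rest on joined exon lengths of 14662 bases for COL4A1 and 19271 bases for COL4A2. In CPM, COL4A1 was below COL4A2 in hESC as well (166 and 187 CPM), so only the change between groups is read here. The ratio of COL4A5 to COL4A6 was 1.19 ± 0.04 in NeuDet-D6 and 3.17 ± 0.11 in hSCNPC-P40. As a description, the means of COL4A5 and COL4A6 over the 22 groups had a Pearson r of 0.98 on the log2 scale, those of COL4A1 and COL4A5 0.92, COL1A1 and COL1A2 0.81, COL4A3 and COL4A4 0.75, COL6A2 and COL6A3 0.71, COL3A1 and COL5A2 0.67, COL4A1 and COL4A2 0.64, COL5A1 and COL5A2 0.33, and COL6A1 and COL6A2 -0.14. The median over all 820 pairs of the 41 genes that reached 1 CPM was 0.12. Groups of a time course share their cell line and stage, so these values carry no test.

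**Figure D5:**
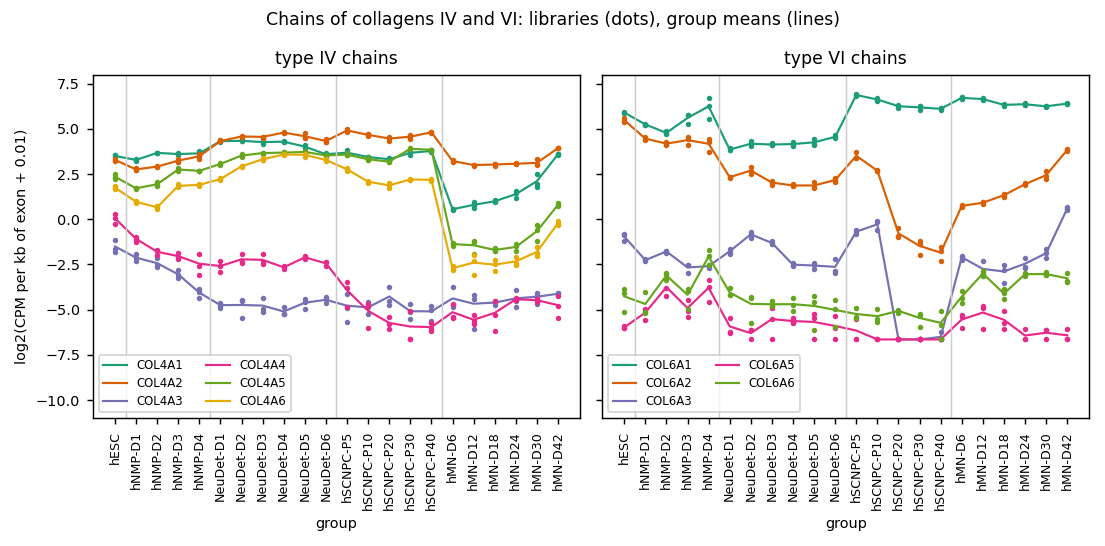
Chains of collagen IV (left) and collagen VI (right) in the 22 groups, as log2(CPM per kb of exon + 0.01), with dots for the 66 libraries and lines for the group means. COL4A5 and COL4A6 drop together into hMN-D6, and between hSCNPC-P5 and P20 COL6A2 and COL6A3 drop farther than COL6A1, which is at 421 CPM at P20 and 381 CPM at P40.

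Genes that make, process, bind or cut collagen were followed in 5 lists of 67 genes, chosen from textbook knowledge. The genes named below were picked from up to 3 called genes in each direction per list and comparison, and not all of those are given. The endoplasmic reticulum enzymes and chaperones of collagen synthesis mostly fell into hNMP-D4 (2 rose and 15 fell of 19 tested, against 26.7% and 27.6% of all genes) and into hMN-D6 (2 and 18 of 20, against 38.5% and 36.7%). They mostly rose to hMN-D42 (16 and 0 of 20 against day 6, where 34.6% and 31.3% of all genes did, and 18 and 1 against day 30, where 21.8% and 19.9% did). SERPINH1, the collagen-specific chaperone HSP47, fell between hESC (558 ± 32.2 CPM) and hNMP-D4 (306 ± 84.9 CPM, -0.88 ± 0.09). It was at 179 ± 8.24 CPM in hSCNPC-P10, at 22.4 ± 2.19 CPM in hMN-D6 (-3.07 ± 0.10) and at 84.1 ± 1.47 CPM in hMN-D42 (1.92 ± 0.10 against day 6). FKBP10, a prolyl isomerase that helps to fold and crosslink collagen, fell from 430 ± 12.9 to 38.0 ± 0.98 CPM into hMN-D6, and PLOD2, a lysyl hydroxylase, fell from 66.9 ± 6.18 to 31.9 ± 1.87 CPM into hNMP-D4.

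Between passages 5 and 40, 13 of the 19 enzymes and chaperones of collagen synthesis rose and 3 fell (P4HA2, COLGALT2 and FKBP10). Of the 43 collagen genes 5 rose and 27 fell, where 22.8% and 24.1% of all genes did. P3H2, a prolyl 3-hydroxylase that acts mainly on type IV collagen, rose from 3.43 ± 0.26 to 29.5 ± 1.49 CPM (3.13 ± 0.22) and P4HA1, the catalytic prolyl 4-hydroxylase, from 28.8 ± 1.70 to 47.9 ± 1.04 CPM (0.76 ± 0.08). Of the 14 propeptide and crosslinking enzymes 3 rose, which is near the share over all genes, and 10 fell. ADAMTS2, which removes the amino-terminal propeptide of fibrillar procollagens, fell from 3.04 ± 0.27 to 0.07 ± 0.03 CPM, while the crosslinking lysyl oxidase LOX rose from 1.59 ± 0.44 to 8.16 ± 0.65 CPM (2.39 ± 0.21). From NeuDet-D6 to hSCNPC-P5, TLL1, a procollagen C-proteinase, rose from 0.04 ± 0.01 to 8.01 ± 0.68 CPM (7.49 ± 0.45), and into NeuDet-D6 10 of the 19 enzymes and chaperones rose and 6 fell, against 30.3% and 34.8% of all genes, so that the fall is near that share.

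Among the receptors, ADGRG1, an adhesion receptor that binds collagen III in the developing brain, rose from NeuDet-D6 (15.48 ± 1.18 CPM) to hSCNPC-P5 (167 ± 7.61 CPM, 3.47 ± 0.10) and from 218 ± 6.25 to 502 ± 38.5 CPM into hMN-D6 (1.13 ± 0.05), and fell to 265 ± 11.5 CPM by hMN-D42. ITGA1 and ITGA11, integrin chains that bind collagen, rose between days 6 and 42 from 0.95 ± 0.11 to 10.8 ± 0.32 CPM and from 4.32 ± 0.71 to 45.5 ± 1.17 CPM, and 5 of the 7 receptors tested rose and 2 fell. Of the collagen-cleaving enzymes 4 of 6 rose and 1 fell over these days. Both lists are small, and 34.6% and 31.3% of all genes rose and fell. MMP14, a membrane-bound collagenase, went from 3.24 ± 0.46 to 69.1 ± 0.66 CPM (4.41 ± 0.21) and MRC2, the receptor that takes up cleaved collagen, from 7.62 ± 0.58 to 68.8 ± 1.49 CPM (3.18 ± 0.17). MMP14 had fallen from 12.1 ± 0.80 to 1.06 ± 0.52 CPM between passages 5 and 40, where 0 of 5 cleaving enzymes rose and 4 fell, against 22.8% and 24.1% of all genes.

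The laminins, nidogens and proteoglycans that share the basement membrane with type IV collagen fell more often than they rose into hMN-D6 (11 and 1 of 15, against 36.7% and 38.5% of all genes). They rose more often than they fell by hMN-D42 (10 and 3 against day 6, where 34.6% and 31.3% of all genes did, and 12 and 0 against day 30, where 21.8% and 19.9% did). NID1, which ties laminin to type IV collagen, fell from 84.4 ± 4.81 to 6.77 ± 0.49 CPM into hMN-D6 (-3.71 ± 0.09). LAMB2, the laminin beta chain of neuromuscular synapses, fell from 110 ± 2.51 to 10.7 ± 1.30 CPM and rose to 87.3 ± 3.01 CPM in hMN-D42 (3.04 ± 0.13). LAMA4, a laminin chain of vessels and peripheral nerve, rose between days 30 and 42 from 3.71 ± 1.09 to 25.7 ± 1.63 CPM (2.82 ± 0.13). AGRN, the proteoglycan that clusters acetylcholine receptors, fell from 606 ± 31.2 to 371 ± 18.1 CPM between days 6 and 42. LAMC3 and NID2 fell between passages 5 and 40, from 6.32 ± 0.67 to 0.03 ± 0.03 CPM and from 28.5 ± 1.04 to 1.62 ± 0.29 CPM.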

How the data were processed

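Bulk RNA was sequenced in 66 libraries of H9 cells and their neural derivatives. The authors prepared total RNA with TRIzol and an NEBNext Ultra kit, used fastp for trimming, HISAT2 2.1.0 for alignment (hg38) and featureCounts 1.5.3 for counting over GENCODE genes, as the submitters' processing notes and the study's methods state; the annotation release and strand setting are not given in the sources used here. The deposited values are raw read counts in 2 tables (48 libraries up to hSCNPC and 18 of hMN). Totals were 14142238 to 40204753, and their size limits precision for genes of a few counts.

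Of 60603 genes, 60261 were matched by identifier to GENCODE release 44, from which symbols, exon lengths and coordinates came. Samples were grouped by the labels. Counts were tested with edgeR 4.0.16 (TMM, low-count filter, robust quasi-likelihood F test, Benjamini-Hochberg, threshold 0.05) in R 4.3.3, in 1 fit of the 48 libraries and another of the 18 from hMN plus hSCNPC-P10 (3 libraries); SE is the log2 fold change divided by the square root of F. Groups at 0 counts were given a floor of 3 counts over the group, and ratios with 1 to 3 counts an exact 95% interval, for counting error only. The sources do not say that the 3 libraries of a group are separate cultures, so p values measure the spread between these libraries, which may be technical. None of the 66 pairs of libraries of a group held identical values. The filter, scaling and test were also run on counts simulated for hMN-D42 against D6 and for hNMP-D4 against hESC, each with only the groups compared. The simulation used the spread that the fit itself had estimated, so it cannot show that the fits of the real data are calibrated. Its outcome is not reported here. Alternatives were DESeq2 1.42.0, RLE scaling, other low-count filters, only the groups compared, the replicate block, other starting passages and leaving out each library.

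The members, lists and tests were chosen with earlier results of these data known. In each comparison, up to 6 called genes in each direction with the largest fitted changes and a mean of at least 1 CPM in the higher group were described, plus the class leaders per length; others were named after their values were seen. Promoter windows (RefSeq, GRCh38.p14) were matched by symbol for 32 of 44 genes. One neural crest marker gene is not reported here and was left out of that list's sums.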

Additional observations from a re-analysis of the deposited data

How the results depend on the processing

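Each alternative fit gave a count of collagen genes that rose and a count of those that fell. All 96 counts from fits without 1 library and 98 of the 100 counts from other alternatives kept within 1.5 times their value. The exceptions were hMN-D6 against hSCNPC-P20 in place of P10, with 19 genes higher and 13 lower in place of 10 and 22. The share over all genes with P20 is not given here, and the cause was not tested. Without 1 library the counts ran from 9 to 13 higher for hNMP-D4 against hESC, from 18 to 23 lower for NeuDet-D6 against hNMP-D4, from 24 to 27 lower for hSCNPC-P40 against P5, from 16 to 20 lower for P20 against P10 and from 27 to 29 higher for hMN-D42 against D30, and stayed at 30 higher for hMN-D42 against D6. Of the log2 fold changes of named genes (87 pairs of gene and comparison), 8 of 522 without 1 library and 2 of 545 under other alternatives lost the call, all of them COL12A1 into hMN-D6 or COL8A1 into hNMP-D4, and 0 changed sign; COL12A1 had an edgeR adjusted p of 0.0843 without the low-count filter, and COL8A1 one of 0.0841 without hESC replicate 3 and 0.116 with only the 2 groups compared. The replicate numbers are shared across groups, but the deviations of same-numbered libraries had correlations from -0.03 to 0.052, so the numbers were not taken to pair them; with the replicate block, 10 in place of 9 genes were higher in hNMP-D4 and every other count of collagen genes was equal. Genes under about 1 CPM rest on few counts at this depth.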
